A study of Homo sapiens with 6 samples.

Results

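Transcripts of 39 genes of glycolysis and of the cellular response to low oxygen were measured in K562 cells, a human erythroleukaemia-type line grown from chronic myeloid leukaemia in blast crisis. The genes were listed by symbol: 2 glucose transporters, 10 genes of the steps from hexokinase to aldolase, 7 of the steps from triose phosphate to pyruvate, 6 that handle pyruvate and lactate, 5 HIF subunits and prolyl hydroxylases, and 9 genes known to be induced by hypoxia. All 39 were found among the 25702 gene identifiers of the count tables, and 38 had enough reads to be tested. ADM, which encodes the vasodilator peptide adrenomedullin, did not. The cells received a pCMV-HA expression plasmid, whose inserts are driven by the cytomegalovirus promoter. It was empty (EV), carried MXD3, or carried the fusion gene STIM1::MXD3, found in paediatric acute myeloid leukaemia. Each group had 2 libraries of poly A RNA, numbered 1 and 2, so 6 libraries were compared. The libraries of a group are described as independent transfections. Transfection was transient, no sorting of transfected cells was described, and none of the labels names a drug or a change of oxygen or glucose, so the levels are those of whole transfected cultures. In such cultures, fewer cells expressing a gene and less RNA per cell cannot be told apart.

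Glycolysis converts glucose to pyruvate in the cytosol and yields ATP without oxygen, and lactate dehydrogenase then turns pyruvate into lactate. When oxygen is low, the HIF alpha subunits escape hydroxylation by the EGLN prolyl hydroxylases, pair with ARNT and raise the transcription of most glycolytic enzymes and of genes such as VEGFA and CA9. MYC, which pairs with MAX and binds the E-box CACGTG, also drives many glycolytic genes, and MXD3 competes with MYC for MAX and represses at the same sites. The comparisons therefore asked how these genes stood after MXD3 or the fusion was introduced.

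Libraries held 53048343 to 63835779 counts, and the 39 genes took 1.05% to 1.21% of them. The plasmid genes followed the labels. MXD3 was at 9.33 and 11.7 counts-per-million (CPM, scaled by TMM) in EV, at 2523 and 2162 CPM with MXD3 and at 1975 and 1849 CPM with the fusion, and STIM1 was at 471 and 453 CPM with the fusion and at 159 to 205 CPM in the other 4 libraries. The 7 erythroid markers reported here were detected (HBG1, HBG2, HBE1, HBZ, GATA1, KLF1 and TAL1), with a summed level of 5655 to 7850.2 CPM, whereas the markers of T cells, B cells, monocytes and granulocytes summed to at most 27.2 CPM per type and the B cell marker MS4A1 had no count.

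The glucose transporter SLC2A1, the ubiquitous GLUT1, was the main one of the pair. Its level was 579 and 433 CPM in EV, 489 and 327 CPM with MXD3 and 545 and 319.7 CPM with STIM1::MXD3. The high-affinity transporter SLC2A3 (GLUT3) ran from 116 to 155 CPM. Per kilobase of transcript SLC2A1 exceeded SLC2A3 in every library, by 4.87-, 4.76- and 5.21-fold in the libraries numbered 1 and by 3.17-, 2.5- and 2.33-fold in those numbered 2.

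Among the enzymes that prime glucose, related forms differed widely for hexokinase and aldolase and less for phosphofructokinase. The housekeeping hexokinase HK1, at 805 to 913 CPM, was per kilobase 27- to 44-fold above HK2, the insulin- and hypoxia-regulated form, over the 6 libraries. All 3 phosphofructokinase genes were expressed, at 80.0 ± 0.54 (PFKP, the platelet type), 58.2 ± 3.26 (PFKL, the liver type) and 19.1 ± 0.30 (PFKM, the muscle type) CPM per kilobase in EV (SD, n = 2). PFKP and PFKL differed by 1.13- to 1.56-fold. The bifunctional regulators PFKFB3 and PFKFB4, which make and break down an allosteric activator of phosphofructokinase, were at 22.3 to 31.5 CPM and 30.4 to 43.7 CPM. GPI, which isomerises glucose 6-phosphate, was at 359.5 to 450.4 CPM. The aldolase ALDOA reached 1218 to 2004 CPM and was 14.2- to 18.4-fold above the brain form ALDOC per kilobase.

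The members with the highest levels per kilobase were an enzyme of the preparatory steps, ALDOA, and 2 of the steps from triose phosphate to pyruvate, GAPDH and ENO1. In EV, GAPDH stood at 1464 ± 47.3, ALDOA at 1075 ± 208, and the enolase ENO1 at 924 ± 41.2 CPM per kilobase (SD, n = 2). The spread of ALDOA reached the value of ENO1, so the order of these 2 genes is not resolved. ENO1 was 43.7- to 51.1-fold above the neuronal enolase ENO2, which was at 41.6 to 49.97 CPM. Triose phosphate isomerase TPI1 was at 255 ± 22.6, pyruvate kinase PKM at 169 ± 24.9, phosphoglycerate mutase PGAM1 at 111 ± 1.75 and phosphoglycerate kinase PGK1 at 56.5 ± 0.23 CPM per kilobase. Counts of GAPDH, BNIP3 and PGAM1 are uncertain, since the reference annotation names 65, 44 and 13 pseudogenes after them and reads may be shared with these copies.

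The lactate dehydrogenase subunit LDHB, which favours pyruvate formation, was at 627 to 724 CPM and above LDHA, the subunit that favours lactate, by 2.09- to 2.69-fold per kilobase in the 6 libraries. The lactate transporter SLC16A1 was at 253 to 285 CPM, and the hypoxia-induced exporter SLC16A3 at 2.22 to 3.80 CPM. The kinases that shut pyruvate dehydrogenase, PDK1 and PDK3, were at 40.0 to 44.5 CPM and 2.12 to 3.43 CPM.

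Both HIF alpha genes were transcribed at like levels, with EPAS1 (HIF-2 alpha) at 0.846 to 1.35 times HIF1A per kilobase. Their partner ARNT was at 85.2 to 134 CPM, the prolyl hydroxylase EGLN1 at 51.1 to 64.2 CPM and the hypoxia-induced EGLN3 at 7.59 to 8.67 CPM. These are transcript levels, whereas HIF alpha is controlled mainly through protein turnover.

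The hypoxia-induced genes covered a wide range. The angiogenic factor VEGFA (220.1 to 346 CPM), the transcriptional repressor BHLHE40 (135 to 269.9 CPM) and the mitophagy receptor BNIP3L (133 to 217 CPM) were the highest by CPM. The related receptor BNIP3 was at 43.6 to 69.8 CPM, the collagen prolyl hydroxylase P4HA1 at 50.5 to 77.9 CPM and the histone demethylase KDM3A at 71.9 to 101 CPM. Of the 9, 3 were near the lower limit. Carbonic anhydrase CA9 had 98 and 79 counts in EV, 30 and 8 with MXD3, and 6 and 50 with STIM1::MXD3. ANKRD37, a small ankyrin repeat protein, had 30 to 64 counts. ADM had 0 and 7 counts in EV, 2 and 8 with MXD3, and 0 and 2 with the fusion, and a count of 0 allows up to 3 counts, or 0.0589 CPM in the first EV library and 0.0547 CPM in the first fusion library, for counting error alone.

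**Figure D1:**
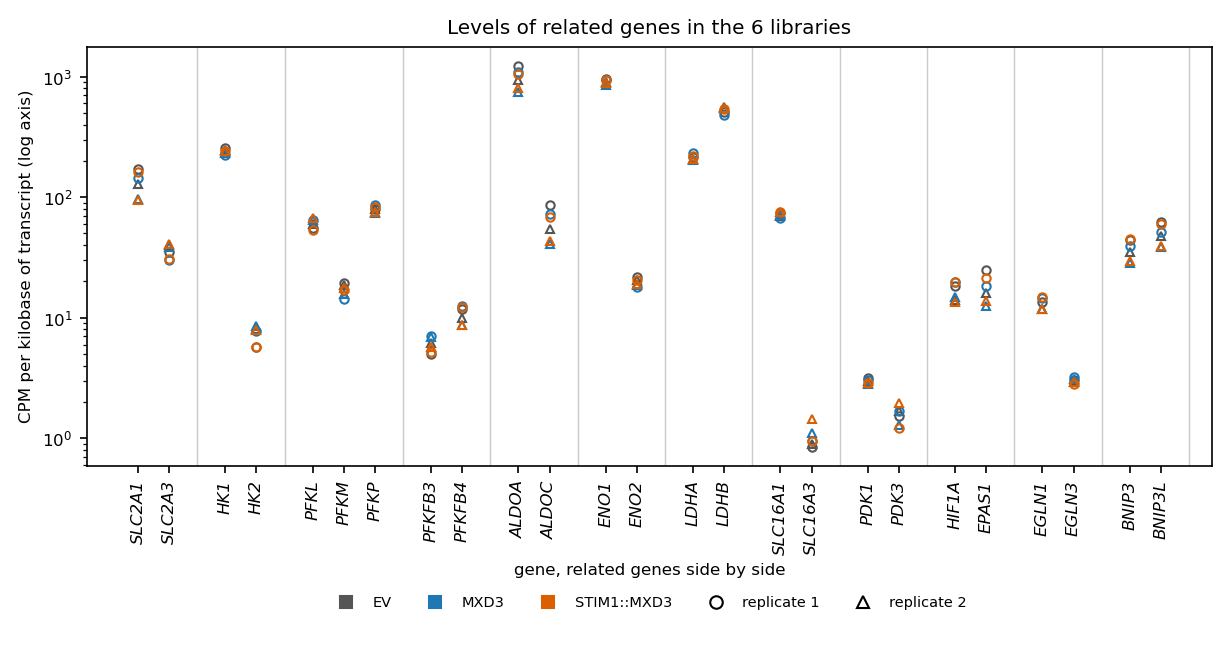
CPM per kilobase of transcript on a log axis for 12 groups of related genes, with colour for the plasmid and symbol for the replicate number (1 point per library). HK1, ALDOA, ENO1 and SLC16A1 lie more than 10-fold above HK2, ALDOC, ENO2 and SLC16A3 in all 6 libraries, whereas HIF1A and EPAS1 overlap.

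Because MXD3 and MYC share the E-box and HIF binds ACGTG, the 250 bases before the annotated starts were searched for both motifs on both strands. RefSeq windows (GRCh38.p14; the count tables used hg19) existed for 35 of the 39 genes, and none was available for SLC2A3, SLC16A1, VEGFA and BNIP3L. CACGTG was present in a window of 9 of the 35 genes (25.7%), against 10.8% of the 11468 tested genes with a window. ACGTG was present in 21 (60%), against 27.9%. A gene can have several windows, so shares per window were also taken, over 63 windows of members and 16476 of tested genes. They were 14.3% against 8.05% for CACGTG and 38.1% against 21.8% for ACGTG. Each CACGTG also holds ACGTG on both strands, so the counts overlap. A match is a description of the letters and not a site that is known to be bound. Windows of 4 genes are shown 5′ to 3′ in the direction of transcription, with capitals marking every match to either motif, because BHLHE40, ALDOC and SLC2A1 differed by replicate number and LDHA did not pass. BHLHE40 (chr3:4979187-4979436, plus strand) and ALDOC (chr17:28576896-28577145, minus strand) hold 1 E-box each, LDHA (chr11:18394313-18394562, plus strand, the first of its windows) holds 2, and SLC2A1 (chr1:42958869-42959118, minus strand) holds neither motif.
BHLHE40: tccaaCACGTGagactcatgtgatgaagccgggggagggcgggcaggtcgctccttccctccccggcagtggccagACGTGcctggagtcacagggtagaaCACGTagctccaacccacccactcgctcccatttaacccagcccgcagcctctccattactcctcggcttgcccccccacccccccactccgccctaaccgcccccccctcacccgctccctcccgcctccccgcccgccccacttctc
ALDOC: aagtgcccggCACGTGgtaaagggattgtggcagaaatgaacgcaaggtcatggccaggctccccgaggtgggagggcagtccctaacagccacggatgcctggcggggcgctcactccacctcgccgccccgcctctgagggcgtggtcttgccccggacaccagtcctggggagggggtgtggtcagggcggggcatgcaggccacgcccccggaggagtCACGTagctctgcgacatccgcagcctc
LDHA: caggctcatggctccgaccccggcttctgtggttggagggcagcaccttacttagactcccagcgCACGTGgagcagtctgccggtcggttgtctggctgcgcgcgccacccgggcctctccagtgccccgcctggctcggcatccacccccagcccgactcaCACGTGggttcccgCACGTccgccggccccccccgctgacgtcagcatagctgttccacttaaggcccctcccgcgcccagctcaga
SLC2A1: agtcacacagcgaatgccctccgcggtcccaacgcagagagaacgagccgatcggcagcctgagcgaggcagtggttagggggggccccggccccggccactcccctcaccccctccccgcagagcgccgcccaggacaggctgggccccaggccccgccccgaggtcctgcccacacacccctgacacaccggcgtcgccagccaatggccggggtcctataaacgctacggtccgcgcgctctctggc

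MXD3 was compared with EV first. No gene of the 38 passed the threshold (adjusted p under 0.05 by the quasi-likelihood test of edgeR, over 15431 genes), and 0.00648% of all genes did, which was 1 gene. That gene was the transfected MXD3 itself (adjusted p = 4.4e-05, edgeR). DESeq2 without the block also called 0 of the 38. The log2 fold change was below 0 for 29 of them and above 0 for 9, with a median of -0.09 against 0.00 over all genes, and 21 of the 38 (55.3%) were lower in both replicate pairs, against 31.5% of all genes. All 7 genes from TPI1 to PKM, both transporters and 7 of the 8 tested hypoxia-induced genes had values below 0. Of these, TPI1, PGAM1 and KDM3A were above 0 in replicate pair 1 and VEGFA in replicate pair 2.

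PFKM and CA9 were the 2 members with an unadjusted p under 0.05, a share of 5.26% against 1.86% of all genes. PFKM was at 59.6 and 58.2 CPM in EV, 44.5 and 48.2 CPM with MXD3 and 52.7 and 54.6 CPM with the fusion. Both MXD3 libraries were below both EV libraries, as for 7 of the 38 members and 14.8% of all genes. The log2 difference was -0.35 ± 0.12 (SE, unadjusted p = 0.0249, adjusted p = 0.9995, edgeR). CA9, at 1.92 and 1.30 CPM in EV and 0.467 and 0.142 CPM with MXD3, rested on few counts (-2.38 ± 0.92, unadjusted p = 0.0356 and adjusted p = 0.9995, edgeR). For the 5 genes followed in every comparison the log2 differences were 0.09 ± 0.24 for HIF1A, -0.31 ± 0.30 for SLC2A1, -0.04 ± 0.11 for PGK1, 0.03 ± 0.125 for LDHA and -0.14 ± 0.27 for VEGFA (SE, adjusted p = 0.9995 for each, edgeR). Here and in the next plasmid comparisons these SEs came from the fit without the block, so they also hold the difference by replicate number.

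With the replicate number as a block, 0 of the 38 members passed in edgeR, while 0.292% of all genes did (45 genes). At an unadjusted p under 0.05 there were 13 (34.2%, 11 lower and 2 higher) against 13.9% of all genes. The differences of the members were not larger, with a median size without the sign of 0.144 against 0.155 over all genes. All genes were not matched to the members for level. DESeq2 with the block, however, called 238 of the 15431 genes kept by the filter. Of the 38 members it called 4, all lower: EPAS1 (-0.40 ± 0.10, adjusted p = 0.00513), ALDOC (-0.34 ± 0.10, adjusted p = 0.0391), SLC2A1 (-0.33 ± 0.10, adjusted p = 0.0455) and PFKM (-0.35 ± 0.11, adjusted p = 0.0478). In edgeR with the block, their adjusted p-values were 0.0605, 0.130, 0.132 and 0.131. EPAS1 and ALDOC were named after their values were seen. EPAS1 was lower with MXD3 than with EV within both numbers, at 93.9 against 128 CPM and 64.9 against 83.0 CPM. ALDOC was at 117 against 139 CPM and at 65.9 against 88.4 CPM, so for both genes the groups overlapped unless the numbers were kept apart. Without the block, leaving out EV replicate 1 or MXD3 replicate 2 turned ALDOC to 0.05 and 0.04, and took EPAS1 to -0.06 and -0.17 and SLC2A1 to -0.08 and -0.06. Such a fit mixes plasmid and number. In replicate pairs 1 and 2 the log2 ratio was -0.24 and -0.42 for ALDOC, -0.44 and -0.35 for EPAS1 and -0.24 and -0.41 for SLC2A1.

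For STIM1::MXD3 against EV, again, no gene of the 38 passed in edgeR. Over all genes 0.00648% passed, which was MXD3 itself (adjusted p = 5.2e-05, edgeR). STIM1, part of the fusion, was 1.28 ± 0.14 higher on the log2 scale and did not pass (SE, adjusted p = 0.359, edgeR). This fit thus missed a gene that the plasmid itself raised, whereas STIM1 passed in edgeR with the replicate block (1.29 ± 0.08, SE). Without the block no member had an unadjusted p under 0.05 in edgeR (0.953% of all genes did). DESeq2 called 0 members with or without the block. Values below 0 were found for 29 of the 38 genes, with a median of -0.06 against 0.01 over all genes, and 19 (50%) were lower in both replicate pairs against 25.1% of all genes. This comparison and the previous one share the EV libraries, so their values are set side by side only. With the block 0 members passed (0.0194% of all genes did), while 8 (21.1%), all lower, had an unadjusted p under 0.05, against 8.5% of all genes. The median size of the difference without the sign was 0.090 over members and 0.128 over all genes.

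The 5 followed genes differed from EV by 0.05 ± 0.24 for HIF1A, -0.23 ± 0.30 for SLC2A1, -0.02 ± 0.11 for PGK1, 0.01 ± 0.125 for LDHA and -0.13 ± 0.27 for VEGFA on the log2 scale (SE, adjusted p = 1.00 for each, edgeR). PGK1 was close to constant, with 271 and 273 CPM in EV and 268 and 267 CPM with the fusion. VEGFA was not. It was at 312 and 309 CPM in EV, at 222 and 342 CPM with MXD3 and at 220.1 and 346 CPM with STIM1::MXD3. In both construct groups library 1 lay below and library 2 above the EV libraries, so the ratio to EV was -0.49 and 0.15 for MXD3 and -0.50 and 0.17 for the fusion in pairs 1 and 2, and the sign of the mean difference depended on the library.

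**Figure D2:**
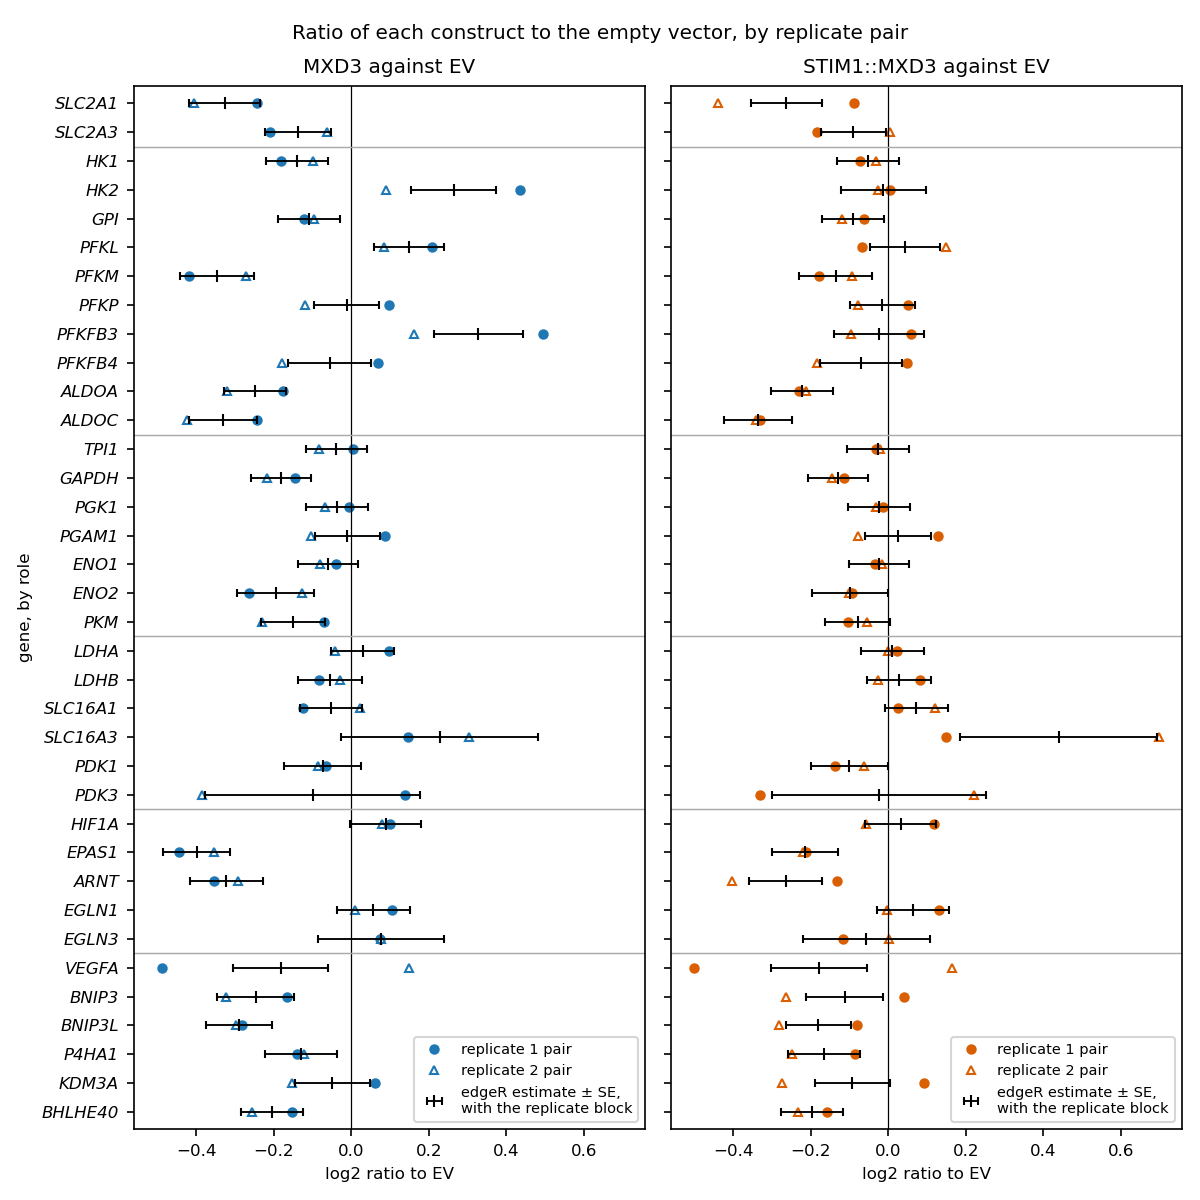
Log2 ratio of each construct to EV for 36 of the genes, by role, as the ratio of the libraries numbered 1 (filled circles), of those numbered 2 (open triangles) and the edgeR estimate with its SE from the fit with the replicate block; CA9, ANKRD37 and ADM are left out because of low counts. EPAS1, ALDOC and PFKM are below 0 in both pairs of both panels, and the pairs of VEGFA lie on opposite sides of 0.

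Between the constructs 0 of 38 members passed, as did 0% of all genes, and 0 members had an unadjusted p under 0.05 against 1.01%. Values were above 0 in the fusion for 26 and below 0 for 12, with a median of 0.03 against 0.01 over all genes, and 14 (36.8%) were higher and 4 (10.5%) lower in both pairs, against 27.5% and 26.1% of all genes. Over all genes 52.1% had values above 0. All 7 genes from TPI1 to PKM were among the 26, at 0.01 to 0.10. In replicate pair 1, however, TPI1, PGK1 and PKM were below 0. The median changed sign when MXD3 replicate 2 (-0.06) or STIM1::MXD3 replicate 1 (-0.06) was left out, in fits without the block that mix plasmid and number. It was 0.01 in replicate pair 1 and 0.04 in replicate pair 2. With the block 0 members passed in edgeR (0.00648% of all genes did) and 4 (10.5%, 2 in each direction) had an unadjusted p under 0.05 against 6.49%. The median size of the difference without the sign was 0.058 over members and 0.121 over all genes. The log2 differences were -0.05 ± 0.24 for HIF1A, 0.08 ± 0.30 for SLC2A1, 0.01 ± 0.11 for PGK1, -0.02 ± 0.125 for LDHA and 0.01 ± 0.27 for VEGFA (SE, adjusted p = 0.9999 for each, edgeR).

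More members passed between the libraries numbered 1 and those numbered 2 than between plasmids, but the tests are unlike. Each number had 3 libraries and each plasmid 2, and the main plasmid fit had no block. The number is only a label shared by the 3 groups, and it was tested in the fit that also held the plasmid. With it, 18 of the 38 members passed (47.4%), against 29.2% of all genes (4499 genes). Of the 18, 15 were lower in the libraries numbered 2 (16.1% of all genes were) and 3 were higher (13.1% of all genes were). Counting libraries rather than calls, 17 members had all 3 libraries numbered 2 below all 3 numbered 1, where 20.6% of all genes did, and 4 had them above, where 18% did. The median over members was -0.10, against 0.01 over all genes. Without the sign, the median size of the difference was alike, at 0.246 over members and 0.241 over all genes. The set of all genes was not matched to the members for level, which also bears on how many pass.

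**Figure D3:**
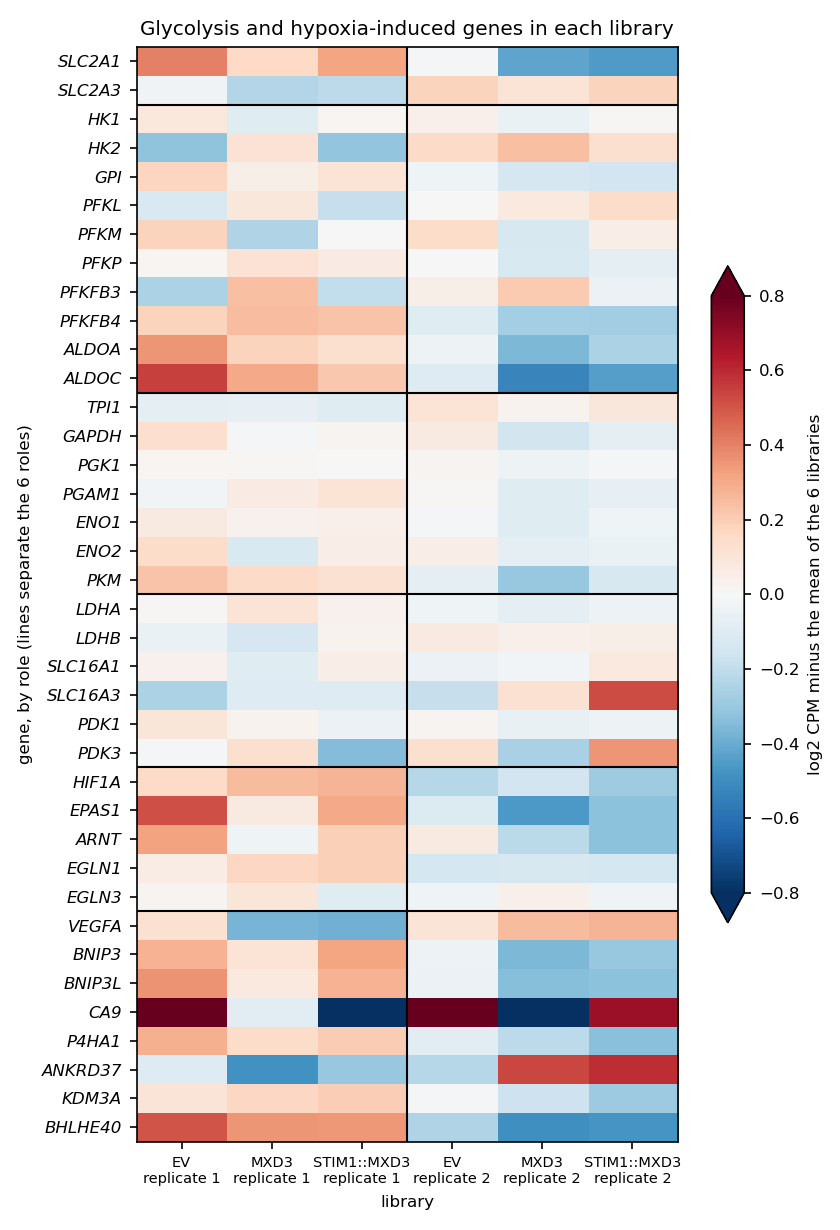
Log2 CPM of the 38 tested genes in each library minus the gene's mean over the 6 libraries, with the libraries numbered 1 on the left and those numbered 2 on the right and genes ordered by role; the colour scale ends at 0.8 either way, which CA9 exceeds. SLC2A1, ALDOA, ALDOC, HIF1A, EPAS1, BNIP3, BNIP3L and BHLHE40 are higher on the left in all 3 groups, whereas PGK1, HK1 and SLC16A1 are near the mean throughout.

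Of the 8 tested hypoxia-induced genes 6 passed by number, 5 lower and 1 higher. Over all genes 29.2% passed, 16.1% lower and 13.1% higher, and each role held few genes. BHLHE40 was at 269.9, 243 and 242 CPM in EV, MXD3 and STIM1::MXD3 libraries numbered 1 and at 161, 135 and 137 CPM in those numbered 2. The 2 sets did not overlap, and BHLHE40 fell by 0.80 ± 0.07 on the log2 scale (SE, adjusted p = 1.86e-06, edgeR with the plasmid as a term, as for all values by number). BNIP3L was at 217, 178 and 205 CPM against 164, 133 and 135 CPM (-0.48 ± 0.07, adjusted p = 1.46e-04), and BNIP3 at 67.9, 60.5 and 69.8 CPM against 54.6, 43.6 and 45.5 CPM (-0.47 ± 0.08, adjusted p = 5.80e-04). Both mitophagy receptors were lower in the libraries numbered 2, and their ratio per kilobase was 1.31 to 1.43 in all libraries. P4HA1 was at 77.9, 70.7 and 73.4 CPM against 60.0, 55.1 and 50.5 CPM (-0.42 ± 0.08, adjusted p = 7.17e-04), and KDM3A at 94.6, 98.8 and 101 CPM against 87.0, 78.3 and 71.9 CPM (-0.32 ± 0.08, adjusted p = 0.00712). KDM3A did not pass without STIM1::MXD3 replicate 1 (-0.23, adjusted p = 0.0695), replicate 2 (-0.21, adjusted p = 0.0619) or both (-0.21, adjusted p = 0.0771, edgeR).

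VEGFA was the exception among the called hypoxia-induced genes. Library 2 was above library 1 with MXD3 (342 and 222 CPM) and with the fusion (346 and 220.1 CPM), while the EV libraries were alike (309 and 312 CPM). The mean difference was 0.42 ± 0.10 (adjusted p = 0.00527, edgeR), and it did not pass without STIM1::MXD3 replicate 1 (0.30, adjusted p = 0.0632), without both fusion libraries (0.32, adjusted p = 0.0560) or in DESeq2 (0.43, adjusted p = 0.0994). Whether the difference by number differs between plasmids could not be tested, since each plasmid has 1 library of each number.

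Of the 5 HIF and prolyl hydroxylase genes 4 passed by number, all lower, where 16.1% of all genes passed as lower. HIF1A was at 72.5, 77.7 and 78.7 CPM against 55.7, 58.8 and 53.5 CPM (-0.45 ± 0.08, adjusted p = 4.75e-04, edgeR), and EPAS1 at 128, 93.9 and 110.4 CPM against 83.0, 64.9 and 71.3 CPM (-0.60 ± 0.07, adjusted p = 3.23e-05). Both sets were apart. ARNT was at 134, 104 and 122 CPM against 113, 92.1 and 85.2 CPM, which overlap (-0.31 ± 0.08, adjusted p = 0.00602), and it did not pass without STIM1::MXD3 replicate 1 (-0.21, adjusted p = 0.0597), replicate 2 (-0.20, adjusted p = 0.0607) or both (-0.20, adjusted p = 0.0711, edgeR). EGLN1 was at 58.7, 63.2 and 64.2 CPM against 51.2, 51.5 and 51.1 CPM and also passed. EGLN3 did not, with values of 7.59 to 8.67 CPM in no order by number.

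Both glucose transporters passed in opposite directions, where 29.2% of all genes passed. The SLC2A1 levels given above put the 3 libraries numbered 1 (489 to 579 CPM) above the 3 numbered 2 (319.7 to 433 CPM), a log2 difference of -0.59 ± 0.07 (adjusted p = 5.055e-05, edgeR). SLC2A3 was at 134, 116 and 118 CPM against 155, 148 and 155 CPM and rose by 0.31 ± 0.07 (adjusted p = 0.00309). Neither set overlapped.

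From hexokinase to aldolase 5 of 10 genes passed, 4 lower and 1 higher, where 29.2% of all genes passed. ALDOC was at 139, 117 and 110.2 CPM against 88.4, 65.9 and 69.8 CPM (-0.71 ± 0.07, adjusted p = 9.46e-06, edgeR), and ALDOA at 2004, 1772 and 1708 CPM against 1521.5, 1218 and 1313 CPM (-0.44 ± 0.07, adjusted p = 1.95e-04). Both aldolases were apart by number. PFKFB4 was at 41.7, 43.7 and 43.1 CPM against 34.5, 30.5 and 30.4 CPM (-0.43 ± 0.09, adjusted p = 0.00163). GPI was lower and HK2 higher in the libraries numbered 2, HK2 at 32.4, 43.9 and 32.5 CPM against 45.0, 47.9 and 44.2 CPM.

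From triose phosphate to pyruvate only PKM passed (1 of 7, where 29.2% of all genes passed). PKM was at 430.3, 409.5 and 400.4 CPM against 349, 297 and 336 CPM (-0.34 ± 0.07, adjusted p = 0.00163, edgeR). None of the 6 genes of pyruvate and lactate handling passed. LDHA was at 483, 517 and 489.9 CPM against 467, 453 and 466 CPM, which do not overlap, but the difference was small (-0.10 ± 0.07, adjusted p = 0.269, edgeR). PGK1 was at 271, 269.8 and 268 CPM against 273, 260.1 and 267 CPM (-0.02 ± 0.06, adjusted p = 0.864, edgeR). GAPDH ran from 1579.9 to 1924 CPM and overlapped between the numbers.

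**Figure D4:**
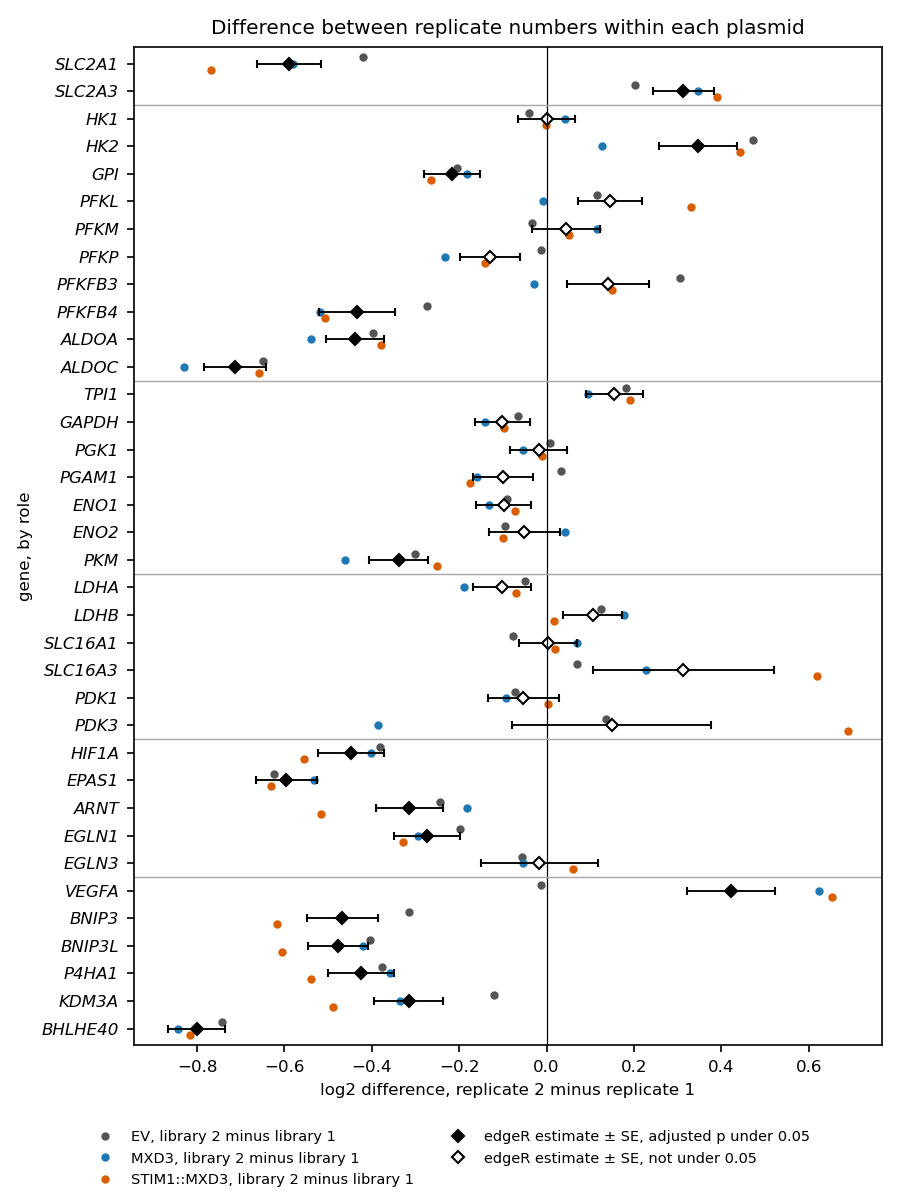
Log2 difference between the library numbered 2 and the library numbered 1 of each plasmid (coloured points) and the edgeR estimate with its SE (diamonds, filled where the adjusted p is under 0.05) for 36 of the genes, by role. The 3 plasmids lie close together for BHLHE40, EPAS1 and ALDOC, all below -0.5, and for VEGFA the EV point is near 0 while both constructs are above 0.6.

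Other measures moved with the number. The summed level of the 7 erythroid markers was 7175, 7729.6 and 7850.2 CPM in EV, MXD3 and STIM1::MXD3 libraries numbered 1 and 6401, 6366 and 5655 CPM in those numbered 2. The share of even numbers among counts of 1 to 39 was 59.8%, 61.3% and 62.7% against 65%, 64.5% and 67.3%. The mitochondrial share did not follow the number (2.73%, 1.45% and 1.56% against 1.54%, 3.73% and 2.9%). Across genes the difference by number correlated weakly with GC content (r = 0.12) and log2 length (r = -0.07, 14176 genes, which are not independent replicates). The part of these measures in the results was not tested. The E-box was present in the windows of 5 of the 15 called members with a window and in 4 of the 19 tested members that were not called, and ACGTG in 8 and 13. ALDOC and BHLHE40, shown above with E-boxes, and SLC2A1, shown with neither motif, all passed, and LDHA with 2 E-boxes did not.

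A further 77 genes of the same pathways were listed, of which 68 were tested. They comprised other glycolytic and glycogen genes, genes of pyruvate oxidation and the pentose phosphate pathway, other HIF regulators and other hypoxia-induced genes. None passed in any comparison of plasmids without the block. With the block 1 of 68 passed (1.47%, against 0.292% of all genes), in MXD3 against EV only: CITED2, a HIF-induced protein that competes with HIF for the coactivator EP300. It was at 253 and 161 CPM in EV, 143 and 91.1 CPM with MXD3 and 205 and 76.1 CPM with the fusion. Both MXD3 libraries were below both EV libraries, as for 14.8% of all genes. The log2 difference was -0.82 ± 0.14 (SE, adjusted p = 0.0274, edgeR with the block). It was -0.82 ± 0.47 without the block (adjusted p = 0.9995, edgeR), and DESeq2 with the block gave an adjusted p of 0.145. Without the block it was -0.46 when EV replicate 1 and -0.54 when MXD3 replicate 2 was left out, which mixes plasmid and number. In both replicate pairs it was -0.82. Over all alternatives the difference of CITED2 ran from -1.17 to -0.46. EP300 itself was at 103 and 90.7 CPM with MXD3 and 75.9 and 76.4 CPM with the fusion (-0.35 ± 0.12, unadjusted p = 0.0243, adjusted p = 0.9999, edgeR). The pentose phosphate enzyme TKT, named after its values were seen, was at 622 and 440.3 CPM in EV and at 495 and 350.2 CPM with MXD3. It passed in DESeq2 with the block (-0.33 ± 0.08, adjusted p = 0.0124) and not in edgeR with it (adjusted p = 0.0984). Without the block it was -0.06 when EV replicate 1 and -0.11 when MXD3 replicate 2 was left out, which again mixes plasmid and number. In both replicate pairs TKT was at -0.33. By number 30 of the 68 passed (44.1%, against 29.2% of all genes), 20 lower and 10 higher, where 16.1% of all genes were lower and 13.1% higher.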

How the data were processed

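Counts per gene, raw and listed under NCBI Gene identifiers, were deposited by the authors in 1 table per library (6 libraries, 2 per group). The submitters' processing notes name HISAT2 2.2.1, featureCounts 2.0.1 and hg19 without roles, and the study also names the DRAGEN RNA Pipeline. Annotation and use of strand are not given in the sources used here, so overlapping genes and copies are uncertain. The many even counts may mean that both ends of a read pair were counted, so counts divided by 2 were an alternative.

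Genes were filtered with filterByExpr (15431 kept), scaled with TMM and tested with the two-sided quasi-likelihood test of edgeR 4.0.16 (R 4.3.3) over all 6 libraries, 1 coefficient per group, with Benjamini-Hochberg adjustment and a threshold of 0.05. DESeq2 1.42.0, other scaling, no filter, the replicate block and leaving out libraries were alternatives. Log2 CPM used a prior count of 2, and CPM per kilobase the length of 1 annotated transcript per gene. Scripts were tested on simulated data. Groups and numbers came from the labels. Whether equal numbers pair the libraries is not stated in the labels and was judged from the counts: deviations from group means of same-numbered libraries correlated at r = 0.270 (EV and MXD3), 0.364 (EV and STIM1::MXD3) and 0.450 (MXD3 and STIM1::MXD3), all above 0.1. Over the 10250 genes with higher mean CPM the correlations were 0.621, 0.707 and 0.792 in the same order. The study gives the 2 libraries of a group as independent transfections. Unmatched identifiers held 0.225% to 0.276% of counts.

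Each of the 39 genes was accounted for by level, and other pathway genes by counts over their lists. Statistics were printed for genes with an unadjusted p under 0.05 without the block or called with it, for up to 15 called by replicate number, and for HIF1A, SLC2A1, PGK1, LDHA and VEGFA throughout. The members, lists and rules were chosen with earlier results of these data known. A further listed erythroid marker is not reported here. Intervals and floors cover counting error only.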

Additional observations from a re-analysis of the deposited data

How the results depend on the processing

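Of 652 alternative values, 595 were scored as the same, 25 as reversed, 16 as moved, 10 as weaker and 6 as stronger. For the fold change of a gene the score rested on direction and side of the threshold. A count was the same within a set ratio of the main count. A median was the same if it moved by less than its spread between libraries (0.101 on the log2 scale for plasmid comparisons). A median could therefore change sign and still be scored as the same. The number of all genes called for STIM1::MXD3 against EV, 1 in edgeR, was 3 with the replicate block, 2 with no filter on low counts, 3 in DESeq2 and 19 in DESeq2 with the block. For MXD3 against EV it was 45 with the block, 3 in DESeq2, 238 in DESeq2 with the block and 1 to 2 without 1 library, and the members called went from 0 to 4 in DESeq2 with the block. Between the constructs it was 1 with the block, with no filter and in DESeq2, and 5 in DESeq2 with the block. By replicate number it was 2580 to 4424 without 1 library, lowest without STIM1::MXD3 replicate 1 (2902 without replicate 2), and 2583 without both fusion libraries, with 12, 14 and 13 members called in place of 18.

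The block changed the call of CITED2 and of no other gene named from these pathways in edgeR. Leaving out 1 library reversed 23 values, of which 2 were PGK1 by number and the rest plasmid comparisons without the block, where it mixes plasmid and number. Against EV the fusion gave -0.26 to 0.29 for HIF1A, -0.66 to 0.10 for SLC2A1, -0.024 to 0.039 for LDHA and -0.50 to 0.16 for VEGFA, and MXD3 gave -0.11 to 0.30 for HIF1A, -0.053 to 0.11 for LDHA, -0.49 to 0.16 for VEGFA and -0.77 to 0.053 for ALDOC. Between the constructs the range was -0.35 to 0.20 for HIF1A, -0.35 to 0.41 for SLC2A1, -0.0033 to 0.027 for PGK1, -0.10 to 0.063 for LDHA and -0.37 to 0.36 for VEGFA, and by number -0.034 to 0.013 for PGK1. VEGFA between the constructs was -0.000637 in DESeq2 with the block, and PGK1 by number 0.0046 without both MXD3 libraries. The cause was not tested. Each group had 2 libraries, and CA9, ANKRD37 and ADM were limited by their counts.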
